A study of Mus musculus with 10 samples.

Results

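The 9 S100 transcripts described here are S100a1, S100a4, S100a6, S100a8, S100a9, S100a10, S100a11, S100a13 and S100a16, which are 9 of the 23238 gene symbols counted in every library. They were taken by symbol from the count files. They were chosen by their measured levels and their differences between deficient and control endothelium in these same libraries, so those differences are given as a description and carry no test. Endothelial cells had been purified from orthotopic gliomas, which were grown in C57BL/6 mice by injecting cells of the mouse glioma line GL26 (GL26l in the design text) into the brain. The Sox7-deficient group (2 libraries) and the Sox17-deficient group (3 libraries) came from mice whose floxed Sox7 or Sox17 alleles were crossed to Cdh5(BAC)-CreERT2. In that line the promoter of VE-cadherin drives a tamoxifen-activated Cre recombinase in endothelium, and tamoxifen was given at 20 mg/kg to experimental mice. Each deficient group has its own control group, with 2 Sox7 control and 3 Sox17 control libraries on the same strain background. The labels do not say whether controls carried Cre or floxed alleles or received tamoxifen, so tamoxifen and Cre activity cannot be told apart from the deletion. No source used here gives the age of the mice or the marker used for purification, and none states that each library was made from a different animal. The spread between libraries may therefore be partly technical.

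S100 proteins are small dimeric calcium sensors with EF-hand motifs. On binding calcium most of them expose a surface that docks onto partner proteins, such as annexins, nonmuscle myosin and the receptors RAGE and Toll-like receptor 4. Several are released from cells and act as danger signals, and in endothelium S100A10 is known for presenting plasminogen and its activator tPA at the cell surface. Sox7 and Sox17 encode related transcription factors of the SoxF group that act in endothelial development.

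All 9 genes are protein-coding and lie on mouse chromosome 3 (GRCm38, GENCODE annotation), where 14 S100 genes are annotated. Seen along the chromosome, S100a1 lies at chr3:90511034-90514392 on the minus strand and S100a13 at chr3:90514435-90524581 on the plus strand. They are followed by S100a16 at chr3:90537254-90543151, S100a4 at chr3:90603771-90606045, S100a6 at chr3:90612882-90624181 and S100a8 at chr3:90668978-90670035, all on the plus strand, and by S100a9 at chr3:90692632-90695721 on the minus strand. These 7 genes fit within 184.7 kb. S100a11 (chr3:93520488-93526287) and S100a10 (chr3:93555080-93564643), both on the plus strand, lie 2824.8 kb further on and 28.8 kb from each other. S100a1 and S100a13 start back to back, with 42 bases between their annotated ends, and that strip is shown because both genes are read outward from it (RefSeq, GRCm38.p6, chr3:90514393-90514434, plus strand):

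S100a1 and S100a13 shared strip: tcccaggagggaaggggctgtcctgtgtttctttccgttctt

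Upstream sequences of 8 of the 9 genes were found in the RefSeq table (S100a10 was not among them). They were searched on both strands from 250 bases before to 50 bases after each start for TATAAA, the TATA box core, and for AACAAT, a core recognised by SOX proteins that reads ATTGTT on the other strand. Among 32851 such RefSeq windows, TATAAA was in 13.6% and AACAAT in 10.7%. TATAAA was found at S100a4, S100a8 and S100a9, and AACAAT at S100a4 and at a second start of S100a16. A match describes the letters only and is neither a binding site nor a cause. S100a4 was the gene with both, and the stretches are printed with the matches in capitals:

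S100a4, chr3:90603720-90603769, plus strand, ending just before its start: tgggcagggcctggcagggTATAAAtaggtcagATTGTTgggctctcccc

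S100a8, chr3:90669029-90669058, plus strand, match 30 bases before the RefSeq start at 90669071, which lies inside the GENCODE gene given above: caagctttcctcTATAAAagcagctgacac

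S100a9, chr3:90695704-90695733, minus strand, match at the first base of the transcript: caaggagctgccTATAAAtactgggcttac

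S100a16, chr3:90541038-90541067, plus strand, match 96 bases before its second start: gggcagcagttcATTGTTgtgcttgagggt

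Library totals ranged from 2085020 counts (Sox17 control 1) to 35098704 counts (Sox17 deficient 2), and the ribosomal RNA precursor Rn45s took 3.93% to 28.8% of them. Levels are given as CPM, which are counts scaled by library size after TMM normalisation. The targeted genes followed the labels. Sox7 had 0.577 and 0.664 CPM in Sox7-deficient libraries, against 23.1 and 5.90 CPM in Sox7 controls. Sox17 had 1.93, 1.07 and 6.70 CPM in Sox17-deficient libraries, against 174, 90.1 and 93.4 CPM in Sox17 controls. All 14 pan-endothelial genes on the marker list, among them Pecam1 and Cdh5, had more than 3 counts in every library. The library Sox7 deficient 1 stood apart: the 17 macrophage and monocyte markers summed to 21388 CPM in Sox7 deficient 1 and to between 93.0 and 1347 CPM in the other 9 libraries. These are bulk samples, so fewer cells of a type and less RNA per cell cannot be told apart.

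The 9 transcripts spanned a wide range of levels. Counts came from 3′ tags, whose number does not grow with transcript length, so CPM were set side by side between genes. No molecular identifiers are mentioned and the annotation is not given, so levels of different genes compare only roughly. S100a6 averaged 225 CPM over the 10 libraries, above the mean of 94.4% of the 13040 genes tested. S100a16 averaged 122 CPM, S100a13 99.4 CPM and S100a11 91.3 CPM, each above at least 84.1% of tested genes. S100a1 (30.0 CPM), S100a10 (18.8 CPM) and S100a4 (12.8 CPM) were in the middle, where the median tested gene had 18.6 CPM. S100a8 (5.83 CPM) and S100a9 (1.93 CPM) were lowest and were at 0 in 6 and 5 libraries. The ranges of every neighbouring pair in this order overlapped across the 10 libraries.

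The abundant transcripts were also the steady ones. The SD of log2(CPM + 1) over the 10 libraries was 0.56 for S100a13, 0.59 for S100a16, 0.75 for S100a11 and 0.79 for S100a6, each below the median of 0.90 over tested genes. It was 1.39 for S100a10, 1.55 for S100a1, 1.75 for S100a4 and 2.02 for S100a8, and 98.8% of tested genes varied less than S100a8. S100a9 had an SD of 1.28. S100a6 made up the largest share of the summed S100 level in 9 of the 10 libraries, at 25.9% to 51.0%. The exception was Sox17 control 1, the shallowest library, where S100a16 led with 32.3% and S100a6 held 14.1%. The summed level of all 9 was 1265, 664 and 566 CPM in Sox17-deficient libraries, against 649, 390 and 488 CPM in Sox17 controls. It was 455 and 480 CPM in Sox7-deficient libraries, against 465 and 646 CPM in Sox7 controls.

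**Figure D1:**
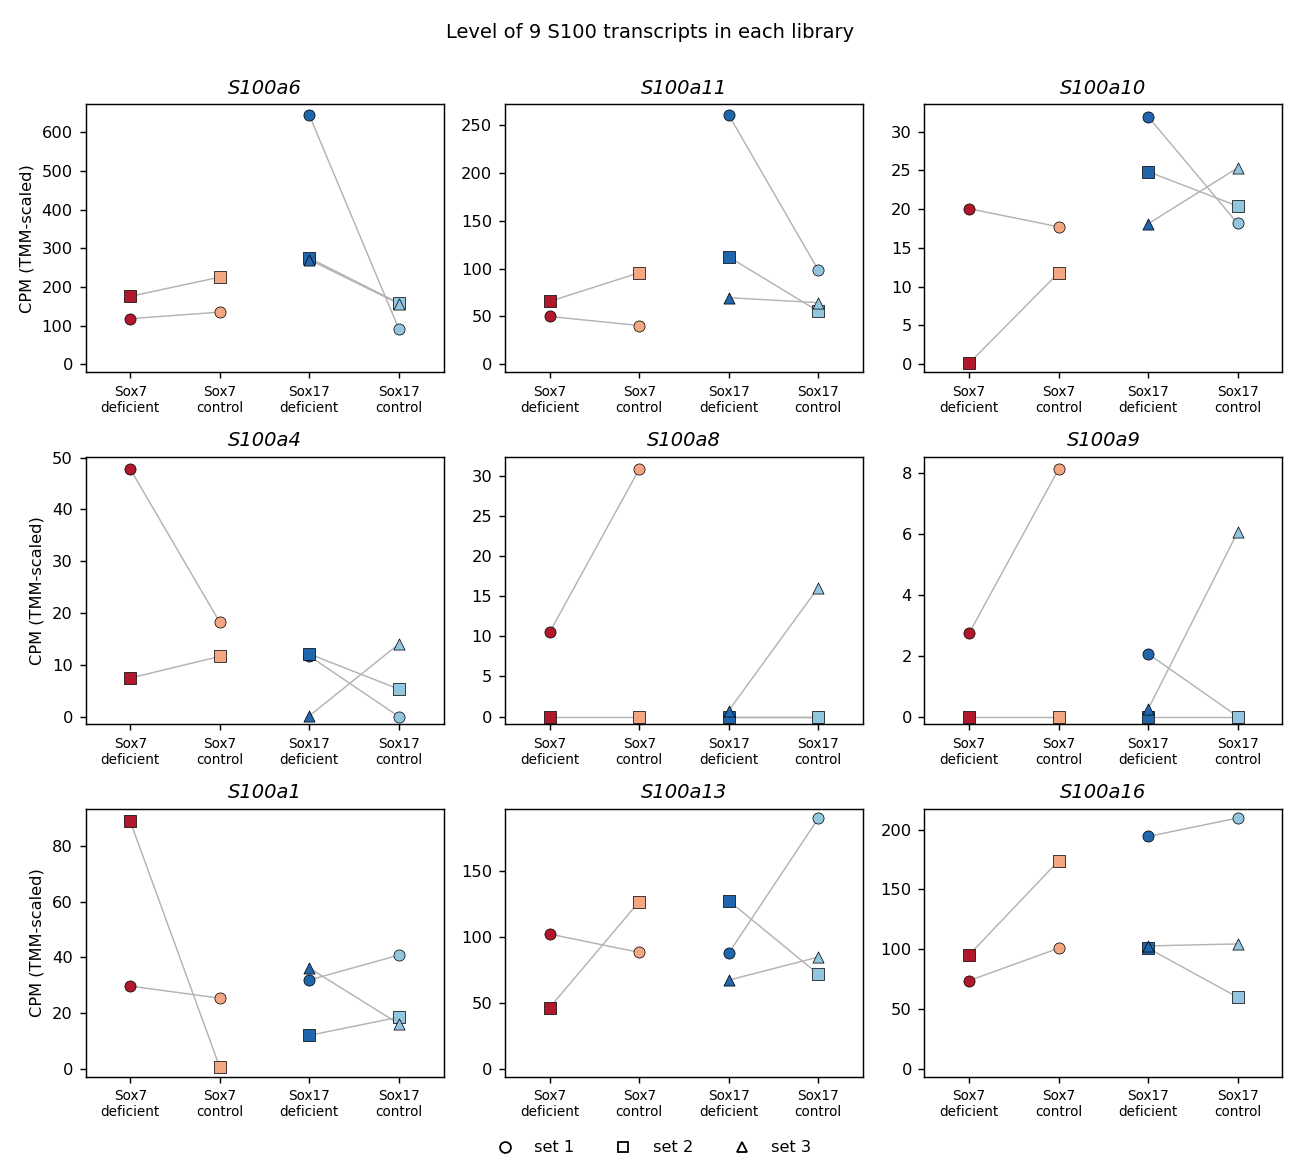
Level of each S100 transcript (y axis, CPM on TMM-scaled library sizes, linear scale set per panel) in the 10 libraries, by group on the x axis. Symbols give the set number and lines join the deficient and the control library of a set. In the S100a6 panel all 3 Sox17-deficient libraries (271 to 644 CPM) lie above all 3 Sox17 controls (91.7 to 158 CPM).

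S100a6, or calcyclin, marks proliferating and stimulated cells and binds the ubiquitin ligase adaptor CacyBP. It had 644, 275 and 271 CPM in Sox17-deficient libraries, against 91.7, 158 and 156 CPM in Sox17 controls. Every deficient library was above every control, as was so for 4.13% of all tested genes, and the deficient library was higher in 3 of 3 sets. The CPM ratio of deficient to control was 7.03 in set 1, 1.74 in set 2 and 1.73 in set 3. Set 1 stands out through both of its libraries, the highest and the lowest of the 10. No run label ties these libraries, so the ratio of set 1 rests on the set number in the titles. The fitted log2 fold change was 1.55 (SE 0.44), with group means of 397 ± 215 CPM in deficient and 135 ± 37.9 CPM in control libraries (SD, n = 3 each). It was 1.00 without Sox17 deficient 1 and 0.78 without both libraries of set 1. It was above 0 in all 14 alternatives, which is no added support. Groups that do not overlap keep their direction when libraries are left out, and the other alternatives refit the same counts. The 9 pericyte markers on the list ran the other way in sum. Their summed level was 235, 265 and 272 CPM in Sox17-deficient libraries, against 899.9, 806 and 308 CPM in Sox17 controls. Each of the 9 had a count in all 6 of these libraries, but they did not all move alike. Rgs5 and Cspg4 were lower in the deficient library in 3 of 3 sets. Higd1b and Notch3 were higher there in set 1, and Pdgfrb, Kcnj8, Abcc9, Notch3, Des and Vtn in set 3. Rgs5, a pericyte marker, had 92.6, 58.6 and 48.5 CPM in Sox17-deficient libraries, against 640.3, 208 and 115 CPM in Sox17 controls. The part of pericytes in the S100a6 difference was not tested.

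S100a6 was not higher in the Sox7 arm. It had 118 and 176 CPM in Sox7-deficient libraries, against 135 and 225 CPM in Sox7 controls, and the groups overlapped. Within sets the deficient library was lower in 2 of 2, by 0.19 and 0.36 on the log2(CPM + 1) scale. The fitted log2 fold change was -0.30 (SE 0.53), smaller than its error, and it was 0.12 without Sox7 control 2.

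S100a11, or calgizzarin, pairs with annexin A1 and takes part in plasma membrane repair. It had 261, 112 and 69.6 CPM in Sox17-deficient libraries, against 98.5, 55.4 and 64.4 CPM in Sox17 controls. The deficient library was higher in 3 of 3 sets, with log2(CPM + 1) differences of 1.40, 1.01 and 0.11, although the groups overlapped. Its fitted log2 fold change was 1.02 (SE 0.51), and without Sox17 deficient 1 it was 0.32. In the Sox7 arm S100a11 had 49.9 and 65.7 CPM in deficient libraries, against 40.5 and 95.7 CPM in controls. The sets went opposite ways there (0.30 and -0.54), with a fitted log2 fold change of -0.24 (SE 0.61). A processed pseudogene, S100a11-ps on chromosome 12, could share reads with S100a11, so its counts are uncertain to that extent.

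S100a6 and S100a11 kept a narrow ratio in CPM, from 2.36 to 3.89 in 9 libraries. In Sox17 control 1 the ratio was 0.931, since S100a6 was at its lowest there while S100a11 was not. By the root mean square difference of centred log2(CPM + 1) over the 10 libraries, S100a11 was at rank 73 among the tested genes in likeness to S100a6 (0.51 for the pair). S100a11 with S100a16 (0.51) and S100a13 with S100a16 (0.52) were about as alike.

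S100a10, or p11, forms a heterotetramer with annexin A2 that holds tPA and plasminogen at the endothelial surface. In Sox17-deficient libraries it had 31.9, 24.8 and 18.1 CPM, against 18.2, 20.4 and 25.3 CPM in Sox17 controls. The groups overlapped and the fitted log2 fold change of 0.23 (SE 1.02) was well within its error. In the Sox7 arm 1 library was unlike the rest: S100a10 had 139 counts and 1 count in Sox7-deficient libraries, against 148 and 128 counts in Sox7 controls. The fitted log2 fold change in that arm was -0.55 (SE 1.25), and 0.44 without Sox7 deficient 2, the library with 1 count. Without Sox7 deficient 1 the value was -6.71, set by that single count. Annexin A2 itself was at 1179 CPM in that library and at 495 to 1694 CPM in all 10. The ratio of Anxa2 to S100a10 in CPM was accordingly 8880 in Sox7 deficient 2, a value that rests on 1 count, and 21.6 to 93.5 in the other 9.

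S100a4, known as metastasin or fibroblast-specific protein, binds nonmuscle myosin IIA and is made by many motile cells, macrophages and fibroblasts among them. It had 331 and 56 counts (47.8 and 7.43 CPM) in Sox7-deficient libraries, against 152 and 126 counts (18.2 and 11.6 CPM) in Sox7 controls. Its highest level of all libraries was thus in Sox7 deficient 1, the library with 21388 CPM of macrophage and monocyte markers, in which all 17 markers had more than 3 counts. There Csf1r had 587 CPM and C1qa 9172 CPM, and the part of such cells in the S100a4 level was not tested. In the other Sox7-deficient library S100a4 was lower than in either control, and the fitted log2 fold change of 0.89 (SE 1.74) was -1.03 without Sox7 deficient 1.

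In the Sox17 arm S100a4 had 85, 428 and 1 counts (11.7, 12.1 and 0.124 CPM) in deficient libraries, against 0, 67 and 226 counts (0, 5.29 and 14.0 CPM) in controls. Both groups thus held a library at or near 0, and the fitted log2 fold change was 0.28 (SE 1.41). The 3-count floor of Sox17 control 1, the library at 0, was 1.36 CPM. The fibroblast markers summed to 73.2, 13.7 and 28.7 CPM in Sox17-deficient libraries, against 54.0, 26.4 and 27.6 CPM in Sox17 controls. Their part in S100a4 was not tested. The exons of S100a4 overlap those of the annotated gene Gm42674 on the same strand, so that reads from the 2 genes cannot be told apart.

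S100a8 and S100a9 encode the subunits of calprotectin, a zinc- and manganese-binding complex that fills the cytoplasm of neutrophils and signals through RAGE and Toll-like receptor 4. S100a8 had 73 and 0 counts in Sox7-deficient libraries, against 258 and 0 counts in Sox7 controls. In Sox17-deficient libraries it had 0, 0 and 6 counts, against 0, 0 and 260 counts in Sox17 controls. S100a9 followed in the same libraries, with 19 and 0 counts in Sox7-deficient libraries against 68 and 0 in Sox7 controls, and with 15, 0 and 2 counts in Sox17-deficient libraries against 0, 0 and 98 in Sox17 controls. Both Sox7 libraries with these transcripts belonged to set 1, and Sox17 control 3 held most of their reads in the Sox17 arm. The exception to the shared pattern was Sox17 deficient 1, with 15 counts of S100a9 and none of S100a8. No fold change is given, since each group held a library at 0.

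In the 3 libraries with over 70 counts of S100a8, that transcript outnumbered S100a9. S100a8 made up 79.3% of their summed counts in Sox7 deficient 1 (exact Clopper-Pearson 95% interval 69.6% to 87.1%), 79.1% in Sox7 control 1 (74.3% to 83.4%) and 72.6% in Sox17 control 3 (67.7% to 77.2%). These intervals and the floors cover counting error only. The intervals overlap, which does not show equal proportions, and a difference was not tested. Of 13 neutrophil markers in the files, 6 had more than 3 counts in Sox7 deficient 1, 7 in Sox7 control 1 and 7 in Sox17 control 3. In the other 7 libraries between 1 and 4 did. The 3 libraries with over 70 counts of S100a8 also had the most gene symbols with a count. These numbered 13717, 13728 and 15874 there, and 9755 to 12802 in the other 7. The part of this wider detection in the S100a8 and marker counts was not tested. Mmp8 and Mmp9, proteases of neutrophil granules, had 23 and 61 counts in Sox7 deficient 1, 6 and 22 in Sox7 control 1, and 23 and 23 in Sox17 control 3, while Mmp9 was at 0 in the other 7 libraries and Mmp8 had at most 3 counts there. Other markers on the list did not follow S100a8: Retnlg had 166 counts in Sox7 control 2, which had none of S100a8, and Csf3r had 29 counts in Sox17 deficient 2 and 20 in Sox17 control 2 but 4 in Sox7 control 1.

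The marker list did not separate those 3 libraries by its summed level, which was 28.4, 23.3 and 22.2 CPM in them and 1.82 to 48.0 CPM in the other 7. Lcn2, which brain endothelium also makes under inflammation, held 340 counts in Sox17 deficient 1. The granule genes Elane and Mpo, typical of neutrophil precursors, were at 0 in every library but for 1 count of Mpo in Sox17 control 3. Ngp had 7, 44 and 52 counts in the 3 libraries, and 278 in Sox17 deficient 2, which had no S100a8 or S100a9 read in 35098704 counts. The part of neutrophils in the calprotectin counts was not tested.

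**Figure D2:**
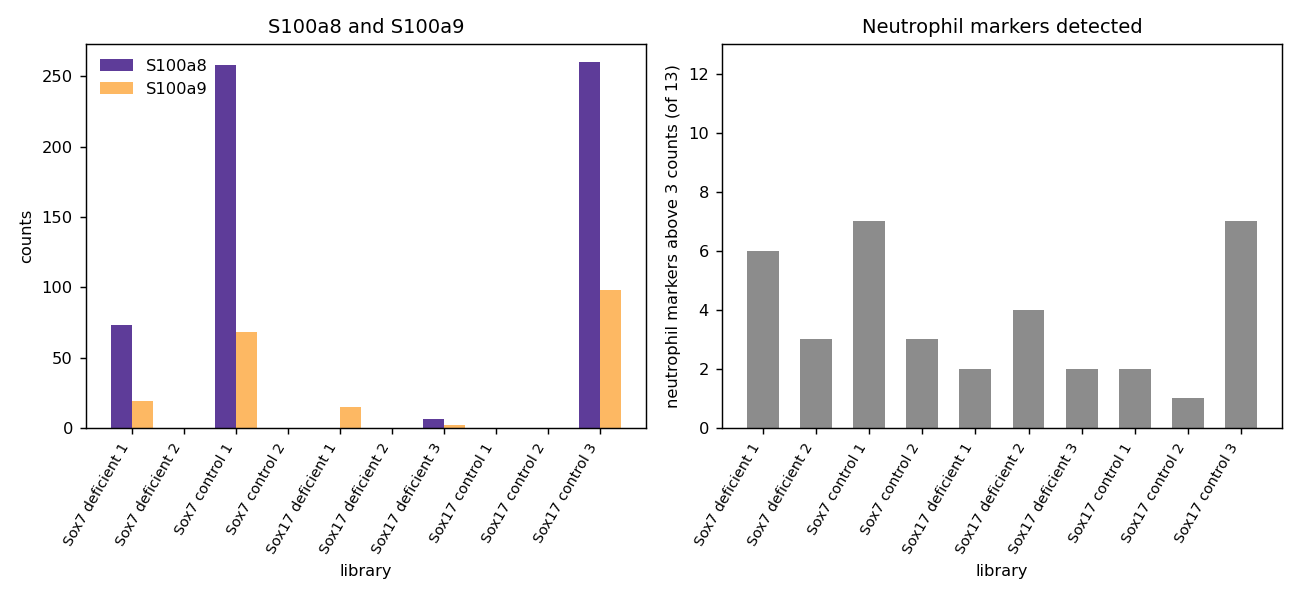
Left, counts of S100a8 and S100a9 (y axis) in each of the 10 libraries. Right, number of the 13 neutrophil markers with more than 3 counts (y axis) in the same libraries. Sox7 deficient 1, Sox7 control 1 and Sox17 control 3 hold over 70 counts of S100a8 each and 6 or 7 of the markers. The other 7 libraries hold at most 4 markers and also have fewer gene symbols with a count (12802 or fewer, against 13717 or more).

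S100a1 is best known from heart muscle, where it acts on the ryanodine receptor and the calcium pump SERCA, and it is also made by endothelium. In the Sox7 arm it had 206 and 670 counts (29.7 and 88.9 CPM) in deficient libraries, against 212 and 6 counts (25.4 and 0.553 CPM) in controls. The groups did not overlap (deficient higher in 12.7% of all tested genes), with means of 59.3 ± 41.9 CPM in deficient and 12.97 ± 17.6 CPM in control libraries (SD, n = 2 each). The fitted log2 fold change was 2.20 (SE 1.17), the largest of the family in that arm, and nearly all of it came from 1 set. In set 1 the log2(CPM + 1) difference was 0.22 and in set 2 it was 5.86. Without Sox7 control 2, the library with 6 counts, the fitted value was 1.22, without Sox7 deficient 2 it was 1.20, and without Sox7 control 1 it was 6.70. In the Sox17 arm S100a1 had 31.9, 12.0 and 36.2 CPM in deficient libraries, against 40.8, 18.6 and 16.2 CPM in controls, and the groups overlapped. There the fitted log2 fold change was 0.09 (SE 0.92).

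S100a13, the neighbour that starts 42 bases from S100a1, helps FGF1 and IL-1α leave the cell without a signal peptide. It had 102 and 46.6 CPM in Sox7-deficient libraries, against 88.5 and 127 CPM in Sox7 controls. In Sox17-deficient libraries it had 87.9, 128 and 67.4 CPM, against 190.1, 71.9 and 84.9 CPM in Sox17 controls. Both arms overlapped between groups, and the fitted log2 fold changes were -0.53 (SE 0.57) in the Sox7 arm and -0.29 (SE 0.47) in the Sox17 arm. The CPM ratio of S100a13 to S100a1 was 1.86 to 10.6 in 8 libraries. In Sox7 set 2 it was 0.524 in the deficient library, the only value below 1, and 230 (from 6 counts of S100a1) in the control.

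S100a16, a widely expressed member, had 73.7 and 95.3 CPM in Sox7-deficient libraries, against 101 and 174 CPM in Sox7 controls. Both deficient libraries were below both controls (as for 12.8% of all tested genes), by 0.45 in set 1 and 0.86 in set 2 on the log2(CPM + 1) scale. The gap between the nearest pair, 95.3 CPM in Sox7 deficient 2 and 101 CPM in Sox7 control 1, was small, and the fitted log2 fold change of -0.70 (SE 0.58) was -0.26 without Sox7 control 2. In Sox17-deficient libraries S100a16 had 194, 101 and 103 CPM, against 209.7, 59.8 and 104 CPM in Sox17 controls, with a fitted log2 fold change of 0.09 (SE 0.47). Set 1 of the Sox17 arm, with its high levels in both libraries, was unlike sets 2 and 3.

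**Figure D3:**
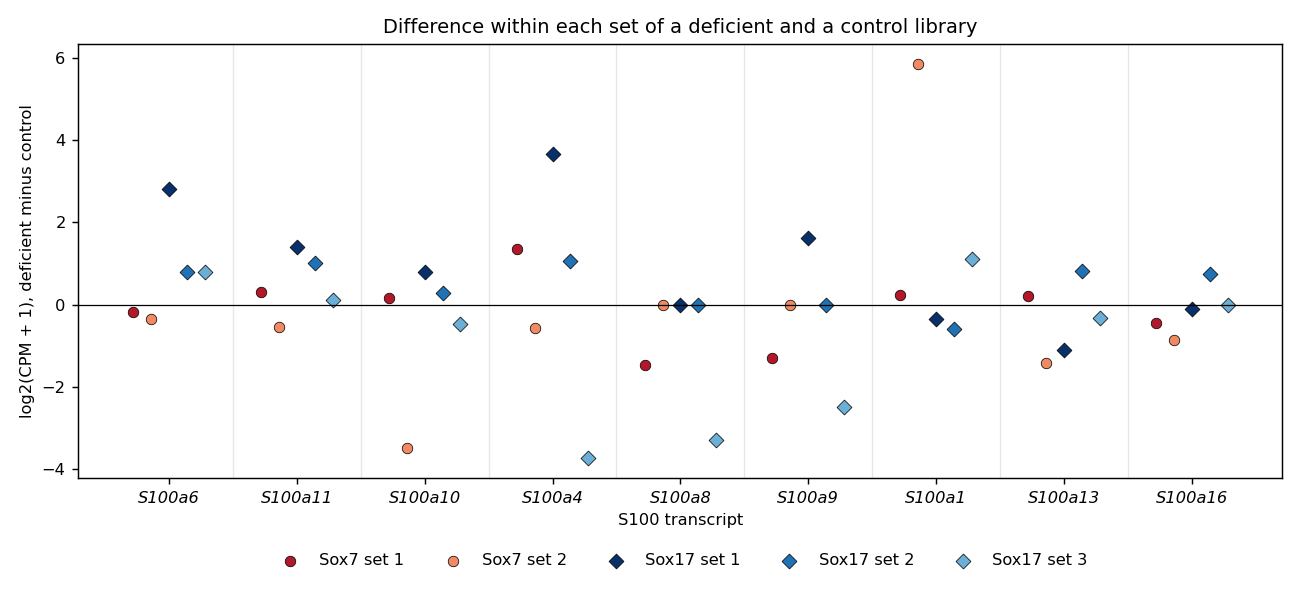
Difference in log2(CPM + 1) between the deficient and the control library of each set (y axis, deficient minus control) for the 9 transcripts (x axis). Circles are the 2 Sox7 sets and diamonds the 3 Sox17 sets. All 3 diamonds lie above 0 for S100a6 (2.80, 0.79 and 0.79) and for S100a11 (1.40, 1.01 and 0.11), and S100a1 has its farthest point in Sox7 set 2 (5.86).

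Counted over the family, 1 transcript had deficient libraries wholly above controls in the Sox7 arm (S100a1, where 12.7% of all tested genes did) and 1 wholly below (S100a16, 12.8% of all). In the Sox17 arm 1 was wholly above (S100a6, 4.13% of all) and none wholly below (4.23% of all). In every set of the Sox17 arm 2 were higher in the deficient library (S100a6 and S100a11, 13.1% of all) and none was lower (11.5%). Across both Sox7 sets 1 was higher (S100a1, 22.3% of all) and 2 were lower (S100a6 and S100a16, 22.5%). Since the family was chosen with these contrasts known, nothing is read from these shares. Without Sox7 deficient 1, the library rich in macrophage markers, the fitted log2 fold changes in the Sox7 arm were 2.74 for S100a1, -0.06 for S100a6, -0.07 for S100a11, -1.23 for S100a13 and -0.55 for S100a16. The median fitted log2 fold change of the 9 was -0.53 in the Sox7 arm, with 2 above and 7 below 0, beside a median of 0.04 over all tested genes, 51.9% of which were above 0. In the Sox17 arm it was 0.09, with 6 above and 3 below 0, beside 0.05 over all tested genes, 52.8% of which were above 0. These medians and counts include S100a8 and S100a9, which were fitted below 0 in both arms although each group held a library at 0.

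Few genes passed a test in this design. By edgeR's quasi-likelihood test over all 13040 genes, 0 genes (0.0%) passed an adjusted p of 0.05 in either arm, and none passed for the difference between the arms. At an unadjusted p under 0.05 there were 195 genes in the Sox7 arm (1.5%), 459 in the Sox17 arm (3.52%) and 374 for the difference (2.87%). DESeq2 called 3, 29 and 15 genes in the same order and limma-voom none, and no S100 transcript was among the calls of any tool. Of the targeted genes, Sox17 reached an adjusted p of 0.226 in its own arm by edgeR, at a log2 fold change of -5.24 (SE 0.81) and lower in 3 of 3 sets. Sox7 did not pass in its own arm by edgeR either, at -4.52 (SE 1.04) and lower in 2 of 2 sets. Since edgeR called neither deleted gene, the lack of a call for another gene does not show a lack of change.

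**Figure D4:**
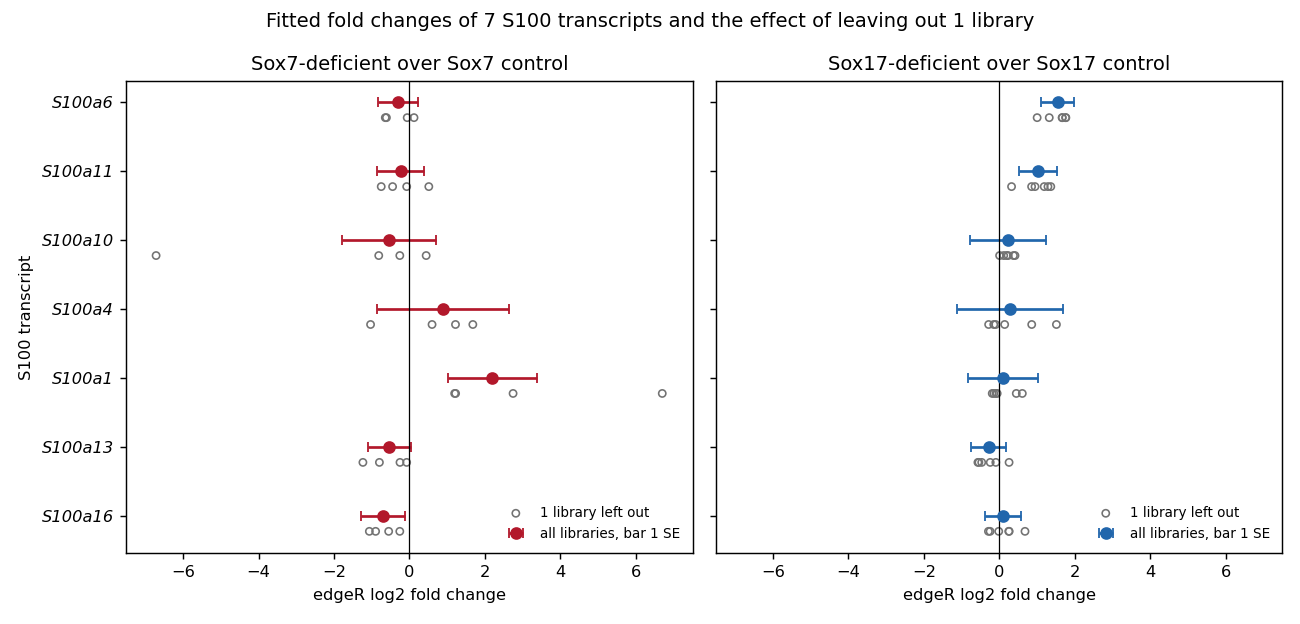
Fitted edgeR log2 fold change (x axis, deficient over control) of 7 S100 transcripts in the Sox7 arm (left) and the Sox17 arm (right). Filled points are the fit with all libraries, bars are 1 standard error (derived from the F statistic), and open circles are fits with 1 library left out. For S100a6 in the Sox17 arm the open circles span 1.00 to 1.76, and for S100a1 in the Sox7 arm they span 1.20 to 6.70. S100a8 and S100a9 are not drawn because each group held libraries at 0.

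The rest of the family was nearly silent. Of 8 other S100 symbols in the files, S100a5, S100a7a, S100g and S100z were at 0 in all 10 libraries, S100a2 and S100a3 had 4 counts and 1 count in Sox17 control 3 alone, and S100a14 had at most 15 counts in any library. S100b, an astrocyte and glial marker, was the remaining S100 gene, and it was abundant enough to test. It had 37.1 and 42.9 CPM in Sox7-deficient libraries against 5.75 and 72.9 CPM in Sox7 controls, and 39.2, 34.7 and 11.3 CPM in Sox17-deficient libraries against 13.2, 45.9 and 10.3 CPM in Sox17 controls. The groups overlapped in both arms. The 9 glial and glioma markers summed to 62.0 to 249.8 CPM over the 10 libraries.

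Among 21 listed partners and receptors of S100 proteins, 19 were tested in the main fit. By edgeR, DESeq2 and limma-voom 0 of 19 passed the adjusted threshold in either direction in either arm. None passed in the other fits with more than 1 library per group, where 15 to 20 were tested. At an unadjusted p under 0.05 by edgeR there was 1 in the Sox7 arm (Plat), beside 1.5% of all tested genes. In the Sox17 arm there were 3 (Plat, Anxa6 and Il1a), beside 3.52% of all. Il1a was at 0 in all 3 Sox17-deficient libraries and had 0, 84 and 3 counts in Sox17 controls. In each arm 13 of the 19 partners had fitted log2 fold changes above 0 and 6 below. Of all tested genes, 51.9% (Sox7 arm) and 52.8% (Sox17 arm) were above 0. The medians of the partners were 0.46 in the Sox7 arm and 0.37 in the Sox17 arm, beside 0.04 and 0.05 over all tested genes. Partners whose groups did not overlap were Anxa6, Cacybp and Sugt1 (higher, as were 12.7% of all tested genes) and Plat (lower, 12.8%) in the Sox7 arm, and Fgf1 (higher, 4.13%) and Plat (lower, 4.23%) in the Sox17 arm.

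Plat encodes tPA, the protease held by S100A10 and annexin A2. It had 191 and 296 CPM in Sox7-deficient libraries, against 440.3 and 556 CPM in Sox7 controls. In Sox17-deficient libraries it had 291, 308 and 256 CPM, against 555, 656 and 496 CPM in Sox17 controls. The fitted log2 fold changes were -1.03 (SE 0.45) in the Sox7 arm and -0.997 (SE 0.36) in the Sox17 arm, and the deficient library was lower in 5 of 5 sets, but edgeR's adjusted p was 1 in both arms. Of all tested genes, 22.5% were lower in every Sox7 set and 11.5% in every Sox17 set. Plg, the plasminogen gene, was at 0 in all 10 libraries.

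Anxa2 averaged 1163 ± 21.6 CPM in Sox7-deficient and 1010 ± 426 CPM in Sox7 control libraries (SD, n = 2 each). In the Sox17 arm it averaged 1153 ± 506 CPM in deficient and 840 ± 305 CPM in control libraries (SD, n = 3 each). Fitted log2 fold changes were 0.20 (SE 0.53) in the Sox7 arm and 0.46 (SE 0.44) in the Sox17 arm, and the groups overlapped in both. Anxa6, the annexin that S100A6 and S100A11 also bind, had 125, 55.4 and 148 CPM in Sox17-deficient libraries, against 69.9, 22.6 and 44.9 CPM in Sox17 controls. It had 38.5 and 32.1 CPM in Sox7-deficient libraries, against 27.2 and 18.4 CPM in Sox7 controls. The fitted log2 fold changes were 0.63 (SE 0.63) in the Sox7 arm and 1.26 (SE 0.52) in the Sox17 arm, the deficient library was higher in 5 of 5 sets, and edgeR's adjusted p was 1 in both arms. Of all tested genes, 22.3% were higher in every Sox7 set and 13.1% in every Sox17 set. Fgf1, the cargo of S100a13, was low throughout. It had 7.15, 2.65 and 6.70 CPM in Sox17-deficient libraries, against 0.454, 0.158 and 2.04 CPM in Sox17 controls. Ager, which encodes the receptor RAGE, was at 0 in 5 libraries and had at most 115 counts, while Tlr4 was detected in all 10.

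For each transcript the 3 tested genes with the most similar profile were listed, by the root mean square difference of centred log2(CPM + 1) over the 10 libraries. Those of S100a6 were Slc25a39 (0.31), Man1c1 (0.34) and Gm12191 (0.34), and those of S100a11 were Krtcap2 (0.33), Commd3 (0.33) and Ch25h (0.34). S100a13 (Vimp, 0.20) and S100a16 (Actg1, 0.22) had the closest matches. S100a8 had no close one: the nearest were Slc16a13 (0.87), S100a9 (0.95) and Alms1 (1.00). S100a9 was the only S100 transcript of the 9 listed among the 3 nearest of another. S100a4 had the next largest distance to its nearest gene, with Dera at 0.60. Profiles were centred but not scaled. Steady transcripts such as S100a13 and S100a16 therefore tend to lie closer to others than variable ones such as S100a8 and S100a4. These likenesses rest on 10 libraries that differ in depth and were not tested.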

How the data were processed

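RNA was extracted with Trizol and 500 ng per library entered the Lexogen QuantSeq kit, per the labels' protocols. That kit sequences the 3′ ends of polyadenylated RNA, and no molecular identifiers are mentioned. The authors deposited raw whole-number counts per gene symbol, 1 file per library. Bowtie2, edgeR and build mm10 (GRCm38) are named in the submitters' processing notes, with no version or role. Which annotation and counting tool were used, and whether strand was used, is not given in the sources used here; gene symbols present in all files (23238) were used, repeated lines were summed, and 1183 symbols of the Sox17 files that begin with Mir were left out.

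CPM were computed on TMM-scaled library sizes, and set differences on log2(CPM + 1). Counts were fitted in R 4.3.3 with edgeR 4.0.16 (quasi-likelihood F-test, robust, filterByExpr, Benjamini-Hochberg threshold 0.05), all 10 libraries in 1 fit with 6 residual degrees of freedom. The filter removed 10198 genes and kept 13040, all 9 members among them; some passed only through the group where they are high. Alternatives used DESeq2 1.42.0 and limma 3.58.1. Groups and set numbers came from the titles. Descriptions of 4 of 5 sets share a run label. Sox17 set 1 carries none, so its pairing rests on the titles alone. The numbers were taken as pairs in all 5 sets. Deviations of paired libraries correlated at 0.193 in the Sox7 arm and at 0.120, 0.0911 and 0.0896 in Sox17 sets 1 to 3. With 2 libraries per group, both Sox7 sets share 1 value. Other pairings were not compared, so these values do not establish the pairing. A count of 3 corresponds to 0.0847 CPM in the deepest and 1.36 CPM in the shallowest library. The members, the partner and marker lists and the tests were chosen with earlier results of these data known. The named genes are all members, the other S100 genes, the listed partners, the targeted genes, the markers of lists that moved with a member, and the 3 genes nearest each member in profile.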

Additional observations from a re-analysis of the deposited data

Results flagged for a closer look

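For S100a6 the set differences had opposite signs in the 2 arms. The deficient library was lower in both Sox7 sets and higher in all 3 Sox17 sets, and the Sox7 log2 difference minus the Sox17 log2 difference was -1.84 (SE 0.69). By edgeR 0 of 13040 genes passed an adjusted p of 0.05 for the difference between the arms. Since S100a6 was chosen with these contrasts known, its own difference is given as a description only. The Sox7 side alone, a log2 fold change of -0.30 (SE 0.53), was smaller than its error, its groups overlapped, and it was 0.12 without Sox7 control 2. Groups of 2 or 3 libraries are too small for a check of single outlying values.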

How the results depend on the processing

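No S100 transcript passed an adjusted p of 0.05 under any alternative. Over all genes, where the main fit called 0, the fit with the replicate block, which pairs the libraries of a set, called 1 gene in the Sox7 arm, 6 in the Sox17 arm and 3 for the difference between the arms. DESeq2 called 3, 29 and 15, and no filter on low counts gave 58, 30 and 58. With 1 library left out the counts ranged from 0 to 14 in the Sox7 arm (14 without Sox7 deficient 1, 3 without Sox7 control 1), from 0 to 1 in the Sox17 arm (1 without Sox17 deficient 3) and from 0 to 9 for the difference (9 without Sox7 deficient 1). The cause was not tested. A lone library left in a Sox7 group is assumed to vary like the other groups. The replicate block put S100a6 at 1.44 on the log2 scale in the Sox17 arm and changed no call of a member.

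The median log2 fold change of the 9 transcripts in the Sox17 arm, 0.09, ranged from -0.10 to 0.94 with 1 library left out (0.94 without Sox17 control 3, the library that holds most S100a8 and S100a9 reads), so its sign rests on single libraries. In the Sox7 arm it stayed below 0, between -1.03 and -0.25. Of the fitted values per member under alternatives, 198 moved by less than 1 SD of that member's set differences and 25 by more. That SD is wide where sets disagree, so a value could change sign and still fall within it. In the Sox17 arm the sign held in 10 of 14 alternatives for S100a1 and S100a4, and in 11 of 14 for S100a13 and S100a16. It held in 13 of 14 for S100a10 and in 14 of 14 for S100a6 and S100a11. In the Sox7 arm it held in 10 or 11 of 11 for each member. Of 180 comparisons of a level with its value under another scaling, 172 stayed within the spread between replicates. All 90 comparisons of a set difference under another pseudocount stayed within the spread between sets. In the Sox17 arm fitted alone, S100a8 and S100a9 did not pass the filter. The fit without both libraries of Sox17 set 1 was chosen after seeing the data. Depth limits Sox17 control 1, with 2085020 counts.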
